A study of Mus musculus with 8 samples.

Results

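A group of 10 genes of lysosomal antigen processing was followed in germinal centre B cells: the cathepsin genes Ctsh, Ctss, Ctsa, Ctsb, Ctsc, Ctsd, Ctsl and Ctsz, the legumain gene Lgmn, and Ifi30, which encodes the lysosomal thiol reductase GILT. All 10 were present among the 23469 gene symbols of the deposited tables. Ctsh was chosen by its RPKM in these same 4 libraries, which was lower in those labelled Irf8 cKO, so its difference is described without a test. The other 9 were added for their place on the same route, with earlier results of these data known. Germinal centre B cells (B220+, FAS high, GL7 high by flow cytometry) came from C57BL/6 mice on day 13 after immunization with NP-KLH, a hapten coupled to a carrier protein. The Ctrl mice were CD19cre/+ Irf8+/+ and the Irf8 cKO mice CD19cre/+ Irf8flox/flox, so both groups carried 1 Cre allele. This Cre is active in the B lineage from early B cells on, not only in the germinal centre. Each of 2 experiments gave 1 library per group, Ctrl 1 and cKO 1, then Ctrl 2 and cKO 2. The labels used here state neither the animals' ages nor any pooling, nor whether separate animals gave the libraries, so p-values measure the spread between these libraries, which may be technical. The series also holds B cells cultured with lipopolysaccharide, which were not analysed here.

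Protein antigen that a B cell takes up through its receptor is cut into peptides in late endosomes and lysosomes, and the peptides are loaded on MHC class II for display to helper T cells. Papain-type cysteine proteases (cathepsins B, C, H, L, S and Z), the aspartic protease cathepsin D, the asparagine-specific protease legumain and the serine carboxypeptidase cathepsin A do much of this cutting, while GILT opens disulphide bonds so that proteases can reach folded protein. Cathepsin S also trims the invariant chain (Cd74) off MHC class II in B cells and dendritic cells. IRF8, an interferon regulatory factor, binds DNA at interferon-stimulated response elements and, with the ETS factors PU.1 and SPIB, at composite elements, and factors of the MiT/TFE family such as TFEB bind E-box elements before many lysosomal genes.

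Because these elements can be read from sequence, the 250 bases before the start site were searched in RefSeq's promoter windows (GRCm38.p6), which held 8 of the 10 genes (10 windows). Ctsh and Ctsb had no entry. Both strands were searched for the response element (GAAA, any 2 bases, GAAA), the composite element (GGAA, any 2 bases, GAAA), the long E-box TCACGTGA and the short E-box CACGTG contained in it. The interferon element is shown for Ctss, the only 1 of the 8 genes with such a match, in capitals on the plus strand of chr3:95526536-95526785, ending 12 bases before the start site.
Ctss: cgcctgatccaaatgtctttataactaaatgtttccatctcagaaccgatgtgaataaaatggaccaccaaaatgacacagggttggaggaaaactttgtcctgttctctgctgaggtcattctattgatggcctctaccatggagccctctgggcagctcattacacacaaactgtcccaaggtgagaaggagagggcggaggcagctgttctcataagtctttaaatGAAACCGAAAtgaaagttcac
Of all 32851 windows, 2.98% held the response element and 2.30% the composite element, which was found in 0 of the 8 genes. The long E-box was held by 3 genes, against 2.24% of the 4874 tested genes with a window (0.785% of all windows), and is shown in capitals for those 3, at chr2:164833740-164833772 (plus strand) for Ctsa, chr7:142387899-142387946 (minus strand) for Ctsd and chr8:70766833-70766880 (minus strand) for Ifi30.
Ctsa: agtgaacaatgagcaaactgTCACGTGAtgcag
Ctsd: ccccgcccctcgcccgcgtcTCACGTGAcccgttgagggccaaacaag
Ifi30: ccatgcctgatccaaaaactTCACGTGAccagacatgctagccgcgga
The short E-box was found in 5 of the 8 genes, Lgmn and Ctsl besides these 3, against 10.5% of tested genes with a window and 6.02% of all windows. In Lgmn it lay in a second window, whose start site is 605 bases inside the deposited gene. In Ctsl the window's start site, 64370520, lies outside the deposited gene, which begins at 64370306 on the minus strand. A match is a run of letters and not a shown binding site.

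Some features of the data as a whole touch every value below. Estimated totals were 62400000 to 75500000 reads per library, from the spacing of low values, and 1 RPKM was reached by 6566 and 6433 genes in Ctrl 1 and Ctrl 2 but by 6171 and 4845 in cKO-labelled libraries 1 and 2. The ribosomal RNA precursor Rn45s stood at 9085 RPKM in Ctrl 1, 5887 in Ctrl 2, 8589 in cKO-labelled library 1 and 16716 in cKO-labelled library 2. That last library thus had the most ribosomal precursor and the fewest detected genes, and 8 of the 10 genes described were lowest in it as deposited. The share of all tested genes lowest in it was not counted, so that count is not shown to be particular to the 10. The part of these features of the library in the results was not tested. RPKM (reads normalised to transcript length and to the mapped reads of the library) was displaced downwards: over the 6446 tested genes, those that reached 1 RPKM in 2 libraries or more, the median log2 ratio of cKO-labelled over Ctrl was -0.18 in experiment 1 and -0.51 in experiment 2. Values are therefore given as deposited and again after median-of-ratios scaling, which divides each library by its median ratio to the mean library and left medians of 0.0011 and -0.03. Log2 ratios are on the log2(RPKM + 1) scale and understate changes of low genes. Irf8 itself stood at 14.5 RPKM in Ctrl 1 and 14.9 in Ctrl 2, against 20.6 and 11.6 in those labelled Irf8 cKO. That value sums all exons and does not check the deletion, so those libraries are called cKO-labelled throughout. All 14 germinal centre B cell markers sought were tested, led by Cd79b at 45.6 to 102 RPKM, with Bcl6, the transcription factor that defines germinal centre B cells, at 23.4 to 38.7. Of these markers 1 fell as deposited, Ms4a1 (CD20), with 96.4 and 67.6 RPKM in Ctrl against 49.02 and 23.4 (log2 ratio -1.23, limma adjusted p = 0.0356; scaled -0.75, adjusted p = 0.223), and the median over the 14 was -0.60 as deposited and -0.12 after scaling. T cell genes lay below 0.1 RPKM in every library.

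In Ctrl cells the levels of the 10 genes, which RPKM allows to be compared per length of transcript, were led by GILT and cathepsins H and S. Ifi30 measured 17.1 ± 0.411 RPKM, Ctsh 16.0 ± 0.395 and Ctss 12.5 ± 5.20 (mean ± SD, n = 2 each). Ctss, whose Ctrl libraries stood at 16.1 and 8.79, did not differ from Ifi30 or Ctsh beyond its own spread. Ifi30, at 16.8 and 17.4, lay just above Ctsh, at 16.3 and 15.7, as deposited. After scaling these 2 genes overlapped, at 13.4 and 15.5 for Ifi30 and 12.9 and 14.0 for Ctsh. Ctsz followed at 8.33 ± 0.158 and Lgmn at 6.32 ± 1.41, then Ctsc at 4.32 ± 0.471 and Ctsa at 3.41 ± 0.538. Ctsb at 1.89 ± 0.573 and Ctsd at 1.42 ± 0.380, 2 proteases abundant in macrophages, were low and within their spread of each other. Ctsl, the cathepsin that processes the invariant chain in thymic epithelium, was near the floor, at 0.0828 and 0.192 RPKM. By level in Ctrl, Ifi30 ranked 340 and Ctsh 379 among the 6446 tested genes, and Ctsd 5435. The filter on low values was passed by 9 of the 10 genes, each with at least 3 libraries at 1 RPKM or more, and not by Ctsl. An estimated 1916 and 1588 reads lay behind the Ctrl values of Ctsh, and 788 and 423 behind those of the cKO-labelled libraries, against 10 to 24 reads for Ctsl.

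**Figure D1:**
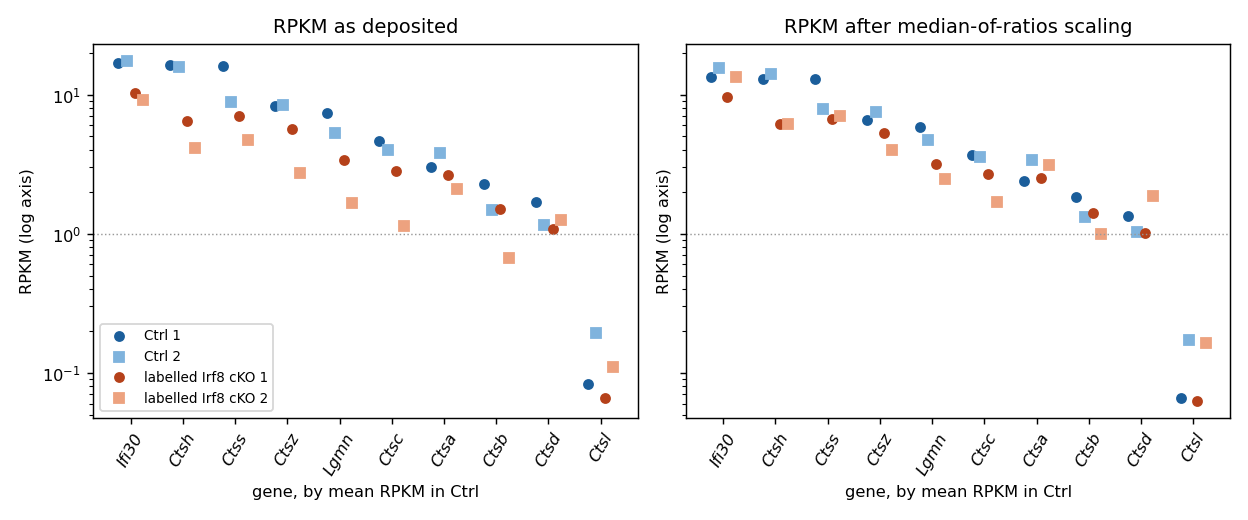
RPKM of the 10 genes in the 4 libraries on a log axis, as deposited (left) and after median-of-ratios scaling (right), with genes in order of their Ctrl mean and a dotted line at 1 RPKM. Each point is 1 library. Ctsh is the gene with the widest gap between the groups on both scales, and Ctsd overlaps on both.

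Ctsh encodes cathepsin H, an aminopeptidase that trims proteins and peptides from their amino end (NM_007801, chromosome 9, 90054267 to 90076095, plus strand). It measured 16.3 RPKM in Ctrl 1, 15.7 in Ctrl 2, 6.45 in cKO-labelled library 1 and 4.15 in cKO-labelled library 2. The Ctrl libraries were nearly equal and lay above both others. The level was 39.6% of Ctrl in experiment 1 and 26.4% in experiment 2, with a fitted log2 ratio of -1.46 ± 0.34 (SE). After scaling it measured 12.9 and 14.0 in Ctrl against 6.09 and 6.14, so that the levels relative to Ctrl, 47.1% and 43.8%, came closer together. The scaled log2 ratio was -1.02 ± 0.18, with -0.98 and -1.07 by experiment. By this ratio Ctsh stood 11th from the lowest of 6446 genes as deposited and 15th after scaling. This fall is what chose the gene.

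Of the 8 other tested members, 1 fell in the RPKM as deposited, Lgmn, and none rose (limma with the experiment as a block, Benjamini-Hochberg threshold 0.05). Over all tested genes 1.09% fell and 0.0931% rose in that fit. Lgmn encodes legumain, which cuts after asparagine and also activates other cathepsins (NM_011175, chromosome 12, 102394098 to 102439697, minus strand). Ctrl 1 and Ctrl 2 read 7.32 and 5.32 RPKM, and cKO-labelled libraries 1 and 2 read 3.36 and 1.65. Both Ctrl libraries were higher than both others. Its log2 ratio was -1.09 ± 0.31 (SE; limma adjusted p = 0.0356). After scaling it measured 5.82 and 4.75 against 3.17 and 2.45, and its log2 ratio of -0.72 ± 0.17 no longer passed (adjusted p = 0.0663), with -0.71 and -0.74 by experiment. After scaling, 0.403% of all tested genes fell and 0.233% rose, and 0 of these 8 members did, though 4 of them were lower at an unadjusted p under 0.05 (limma), as were 6.1% of all tested genes. The Lgmn call was also lost without the block (adjusted p = 0.408), with a pseudocount of 0.1 (0.0608) and without the filter (0.216). It was lost too without Ctrl 1, Ctrl 2 or cKO-labelled library 2, where the log2 ratio was -0.89, -1.29 and -0.74 (lowest adjusted p = 0.912). The authors' deposited tables, which compare 1 library with 1 library under the authors' own scaling, give Lgmn log2 ratios of -0.92 (unadjusted p = 0.0170) in experiment 1 and -0.96 (0.0523) in experiment 2.

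The remaining cysteine cathepsins had lower values without passing the test. Ctss, cathepsin S, the main invariant chain protease of B cells (chromosome 3, 95526786 to 95556405, plus strand), measured 16.1 and 8.79 RPKM in the Ctrl libraries against 7.06 and 4.70. The groups did not overlap, but the Ctrl libraries differed 1.84-fold. Its log2 ratio was -0.93 ± 0.33 (SE; limma adjusted p = 0.141), with a spread after scaling from -0.85 in experiment 1 to -0.15 in experiment 2. The authors' deposited tables give Ctss log2 ratios of -0.99 (unadjusted p = 0.00546) and -0.18 (0.685) for these experiments. The scaled difference was -0.18 when Ctrl 1 was left out and the block dropped, and -0.82 without Ctrl 2, against -0.50 with all 4 libraries. This is the gene whose promoter stretch holds the interferon element shown above.

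Ctsc and Ctsz showed the opposite order between experiments. Ctsc encodes cathepsin C, a dipeptidyl peptidase that activates granule serine proteases (chromosome 7, 88278093 to 88310875, plus strand). Its RPKM was 4.66 in Ctrl 1, 3.99 in Ctrl 2, 2.82 in cKO-labelled library 1 and 1.14 in cKO-labelled library 2. Ctsz, a carboxypeptidase also named cathepsin X (chromosome 2, 174427494 to 174438992, minus strand), measured 8.22 and 8.44 against 5.61 and 2.71. In both genes the Ctrl libraries were close together, the groups did not overlap, and cKO-labelled library 2 was the lowest, also after scaling. The log2 ratios were -0.89 ± 0.29 and -0.91 ± 0.32 (SE; limma adjusted p = 0.0997 and 0.134). Without cKO-labelled library 2 they were -0.48 for Ctsc and -0.50 for Ctsz. Scaled, they were -0.36 and -0.76 by experiment for Ctsc, and -0.26 and -0.77 for Ctsz. The authors' deposited tables give Ctsc log2 ratios of -0.52 (unadjusted p = 0.182) in experiment 1 and -1.09 (0.0312) in experiment 2. For Ctsz the authors' deposited values are -0.34 (0.372) and -0.92 (0.0516).

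Ctsb, cathepsin B, which cuts within proteins and also works as a dipeptidase (chromosome 14, 63122462 to 63145923, plus strand), measured 2.29 and 1.48 RPKM in Ctrl against 1.49 and 0.670. Ctrl 2 lay just below cKO-labelled library 1, so the groups overlapped. Its log2 ratio was -0.49 ± 0.25 (limma adjusted p = 0.264), and after scaling -0.23 and -0.22 by experiment, with a range from -0.37 to -0.08 when 1 library was left out. Ctsl (chromosome 13, 64363214 to 64370306, minus strand) measured 0.0828 and 0.192 RPKM in Ctrl against 0.0664 and 0.111, too low for the fit. Without cKO-labelled library 1 and without the block, Ctss, Ctsb, Ctsc and Ctsz passed along with Lgmn (limma adjusted p = 0.0364, 0.0278, 0.00257 and 0.0111 for the first 4). In that fit of deposited RPKM 22.5% of all tested genes fell, and after scaling no member passed.

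The reductase GILT and the 2 proteases of other classes differed among themselves. Ifi30, an interferon-gamma-inducible gene (chromosome 8, 70762773 to 70766663, minus strand), measured 16.8 and 17.4 RPKM in Ctrl against 10.3 and 9.10, without overlap as deposited. After scaling the cKO-labelled libraries stood at 9.68 and 13.5 and Ctrl at 13.4 and 15.5, so the groups overlapped. The log2 ratio was -0.77 ± 0.35 (limma adjusted p = 0.233), and -0.31 ± 0.19 after scaling (0.562). The scaled ratio was -0.09 without cKO-labelled library 1 and -0.53 without cKO-labelled library 2. Ctsa, cathepsin A, which also shields lysosomal galactosidase and neuraminidase from breakdown (chromosome 2, 164833773 to 164841032, plus strand), measured 3.03 and 3.79 against 2.66 and 2.11. Its log2 ratio of -0.38 ± 0.29 (adjusted p = 0.389) was close to the median of all genes, and after scaling it was -0.02. Ctsd, the aspartic protease cathepsin D (chromosome 7, 142375916 to 142387870, minus strand), measured 1.69 and 1.15 RPKM in Ctrl against 1.08 and 1.25. It was the only member to be higher than Ctrl in 1 of the experiments as deposited, with log2 ratios of -0.37 and 0.06, and after scaling its fitted ratio changed sign to 0.14 ± 0.19. The 3 genes with the long E-box, Ctsa, Ctsd and Ifi30, were those with scaled log2 ratios of -0.02, 0.14 and -0.31. The 4 other tested genes with a promoter window, Ctss, Ctsc, Ctsz and Lgmn, had scaled ratios of -0.50, -0.56, -0.51 and -0.72. Lgmn, the lowest of these, holds the short E-box, in the window whose start site is 605 bases inside the deposited gene. Ctsh and Ctsb, with scaled ratios of -1.02 and -0.22, had no window and are in neither group. No such split of all tested genes is given here. These ratios and matches stand side by side with no test.

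**Figure D2:**
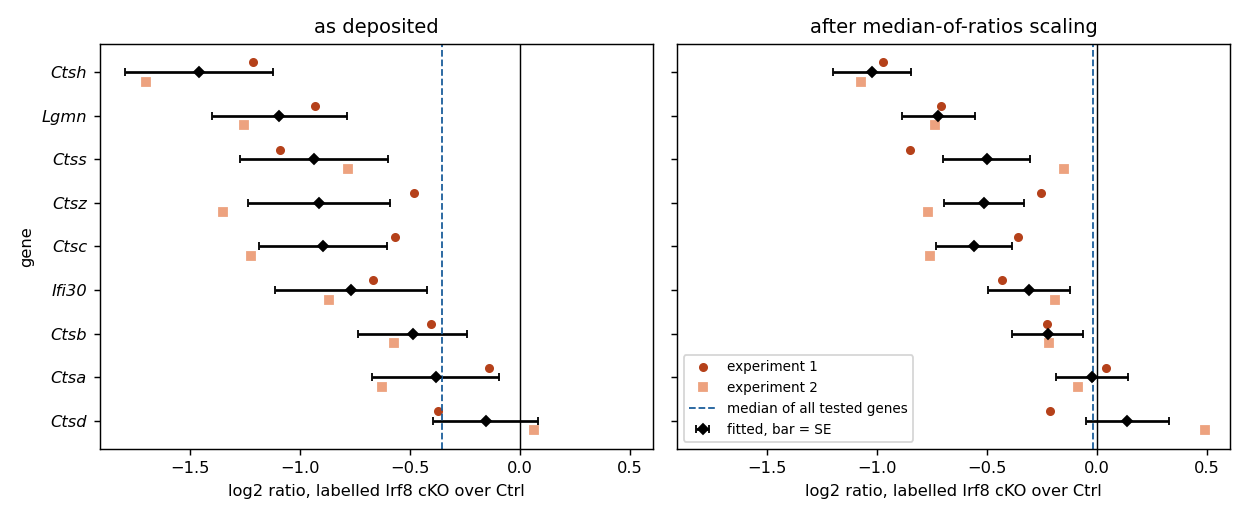
Log2 ratio of cKO-labelled over Ctrl for the 9 tested members, as deposited (left) and after scaling (right). Diamonds with bars are the fitted ratio and its SE, circles and squares are experiments 1 and 2, and the dashed line is the median of all 6446 tested genes. After scaling the experiments lie close together for Ctsb, Lgmn and Ctsh, and farther apart for Ctss, Ctsc, Ctsz and Ctsd.

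As deposited, 7 of the 9 tested members had both cKO-labelled libraries below both Ctrl libraries, and 5 of 9 after scaling. The 5 were Ctsh, Ctss, Ctsc, Ctsz and Lgmn, all cysteine proteases, while Ctsb, also a cysteine protease, overlapped on both scales. Over all tested genes these shares were 44.7% and 17.2%. Both experiments had the lower value in the cKO-labelled library for 8 of the 9 as deposited, and for 7 after scaling, against 71.2% and 30.2% of all tested genes. These counts include Ctsh, and the contrast is the one that chose it. In the authors' deposited tables, a lower ratio with unadjusted p under 0.05 was given to 3 of the 10 in experiment 1 (Ctsh, Ctss and Lgmn) and 2 in experiment 2 (Ctsh and Ctsc), against 2.87% and 1.95% of entries of tested genes. Both counts also include Ctsh, chosen for its fall. Apart from Ctsh they hold Ctss and Lgmn in experiment 1 and Ctsc alone in experiment 2, and the 10 include Ctsl, which was not tested. The median log2 ratio of the 8 tested members other than Ctsh was -0.83 as deposited and -0.41 after scaling, beside -0.35 and -0.02 over all tested genes. Summed over the 10 genes, Ctsh included, scaled RPKM was 60.8 and 59.2 in Ctrl, and 38.6 and 40.9 in the cKO-labelled libraries. In these bulk libraries, fewer cells expressing a gene and less of its RNA per cell cannot be told apart.

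The other components of the lysosome, taken from lists drawn up for this pathway, had medians closer to that of all tested genes. Of 32 listed lysosomal hydrolases and their cofactors, 14 were tested. The most abundant of the list, the mannosidase gene Man2b1 and the palmitoyl thioesterase gene Ppt1, had scaled log2 ratios of -0.00665 and 0.11. The list's median was -0.28 as deposited and 0.02 after scaling, and its summed scaled RPKM, 38.3 and 36.5 in Ctrl against 35.01 and 40.7, overlapped between groups.

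None of the 10 tested lysosomal membrane genes (of 19 listed), 15 tested proton pump subunits (of 17) or 7 tested genes of mannose 6-phosphate sorting (of 10) passed in either direction (limma). At unadjusted p under 0.05 there were 4, 4 and 0 of them, all lower, as were 18.6% of all tested genes. Their medians were -0.37, -0.44 and -0.39 as deposited and -0.06, -0.06 and -0.11 after scaling. Laptm5, a lysosomal membrane protein of blood cells, was by far the highest of these genes, at 88.1 and 70.5 RPKM in Ctrl against 57.5 and 38.2, with a scaled log2 ratio of -0.26. Cd164, a sialomucin, measured 14.2 and 6.14 against 6.36 and 3.56 (scaled -0.43). The proton pump subunits Atp6v1f and Atp6v0e had scaled ratios of 0.26 and -0.57, and the sorting genes M6pr, a mannose 6-phosphate receptor, and Gga2, a coat adaptor, -0.11 and 0.10. Tfeb and Tfe3, the 2 tested transcription factors of lysosomal genes among 4 listed, measured 2.08 and 3.46 against 1.81 and 1.63 RPKM, and 1.38 and 0.989 against 1.43 and 0.592, and neither passed, also at unadjusted p under 0.05.

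Among 15 other lysosomal peptidases, 6 were tested and 0 passed (limma), with a median of -0.45 as deposited and -0.09 after scaling. At unadjusted p under 0.05 (limma, as deposited) 2 of the 6 were lower, as were 18.6% of all tested genes. Napsa, napsin A, an aspartic protease, led at 6.60 and 4.64 RPKM in Ctrl against 3.73 and 3.49 (scaled log2 ratio -0.10). Ctso, the papain-type cathepsin O, measured 4.94 and 4.80 against 2.64 and 1.90 (scaled -0.48; limma adjusted p = 0.130 as deposited and 0.269 scaled), without overlap. Of the 15, 6, among them Ctsf and the neutrophil protease gene Ctsg, were listed at 0 in all 4 libraries. Of 8 inhibitors of cysteine proteases, Cst3 and Cstb were tested and neither passed (limma). At unadjusted p under 0.05 (limma, as deposited) Cst3 was lower, beside the same 18.6% of all tested genes. Cst3, cystatin C, a secreted inhibitor of cathepsins S and H, measured 9.01 and 5.29 RPKM in Ctrl against 3.63 and 2.96 (log2 ratio -0.89; scaled -0.48). Cstb, the cytosolic cystatin B, measured 5.67 and 1.99 against 2.74 and 3.73, with scaled ratios below 0 in experiment 1 only.

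**Figure D3:**
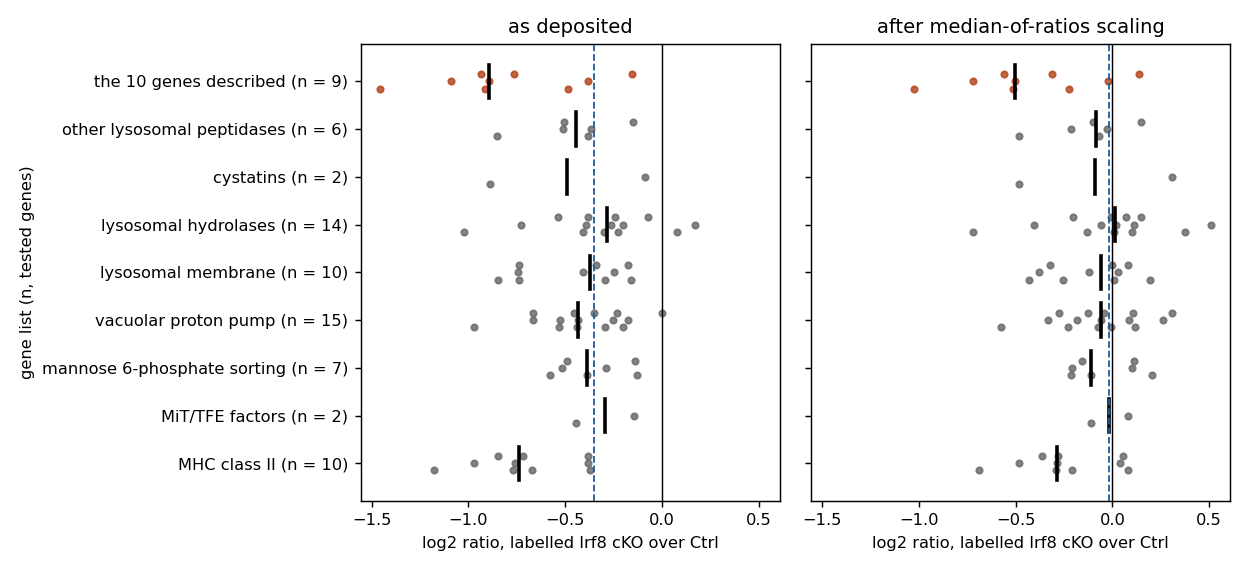
Log2 ratios of the tested genes of each list, as deposited (left) and after scaling (right). Each point is a gene, the black bar is the list's median, and the dashed line is the median of all 6446 tested genes. Of the lists plotted, the described genes have the lowest median, -0.89 and -0.50 with Ctsh included, and MHC class II follows at -0.74 and -0.28.

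MHC class II, the receiver of the peptides, had 10 listed and tested genes, of which Cd74 fell and 9 did not pass (limma adjusted p = 0.000186 for Cd74, and 0.631 after scaling). At unadjusted p under 0.05 (limma) 6 of the 10, Cd74 included, were lower as deposited and 0 after scaling, beside 18.6% and 6.1% of all tested genes. Summed over the 10 class II genes, the level relative to Ctrl was 59.6% and 40.7% in experiments 1 and 2 (scaled 70.8% and 67.7%). For the 10 lysosomal genes it was 53.3% and 41.6% (scaled 63.4% and 69.1%), a sum that includes Ctsh, chosen for its fall. H2-Aa, the most abundant chain after Cd74, measured 348.1 and 281.5 RPKM in Ctrl against 185.2 and 136.5 (scaled log2 ratio -0.48).

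Some neutrophil transcripts also fell, and macrophages are rich in several of these cathepsins. Of 23 myeloid markers 5 were tested, and S100a8, S100a9 and the neutrophil granule gene Ngp fell both as deposited and after scaling (limma). The 23 summed to 93.0 RPKM in Ctrl 1, 19.95 in Ctrl 2, 29.97 in cKO-labelled library 1 and 8.88 in cKO-labelled library 2, so the groups overlapped. In this sum Ctrl 2 held less than cKO-labelled library 1. These 2 libraries are from different experiments. As deposited, Ctsh measured 15.7 against 6.45 RPKM in them, Lgmn 5.32 against 3.36 and Ctsb 1.48 against 1.49. Among the myeloid genes the order varied. S100a8, S100a9, Ngp and Lyz2 were lower in Ctrl 2, and Apoe, Mpeg1 and Cd5l, with values below, were higher. The macrophage lysozyme gene Lyz2 measured 16.5 and 3.47 RPKM in Ctrl against 9.34 and 0.988. The macrophage receptor gene Csf1r lay below 0.1 RPKM in all 4 libraries, and C1qb, Fcgr1 and Cd14 were listed at 0 in all 4. Apoe, a lipoprotein gene of macrophages, measured 9.04 and 7.86 against 6.75 and 5.90 (scaled log2 ratio 0.07). Mpeg1, which encodes a macrophage pore-forming protein, measured 1.63 and 0.800 against 0.501 and 0.180, and Cd5l, a secreted macrophage protein, 0.480 and 0.797 against 0.302 and 0.176, both without overlap and below the filter. Counts of markers at 0 were 3 and 8 of 23 in Ctrl and 4 and 10 in the cKO-labelled libraries. Dendritic cell markers summed to 1.98 and 2.17 RPKM in Ctrl against 1.56 and 1.53, with Itgax at or below 0.0117. The part of other cells in the differences of the 10 genes was not tested.

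**Figure D4:**
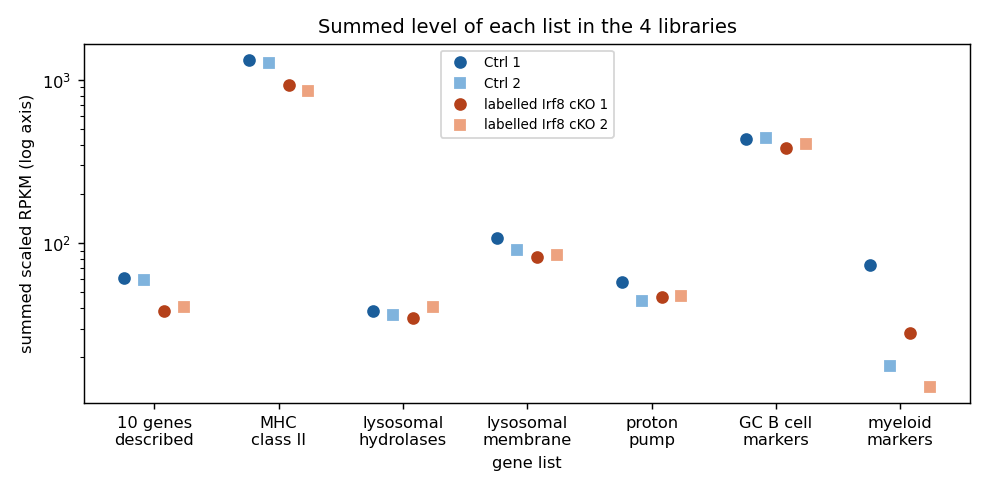
Summed scaled RPKM of 7 gene lists in the 4 libraries on a log axis, 1 point per library. Both Ctrl libraries lie above both others for the described genes (Ctsh included), MHC class II, membrane genes and B cell markers. The hydrolases and proton pump overlap, and the myeloid markers are highest in Ctrl 1 (73.9) and lowest in cKO-labelled library 2 (13.2).

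Among the 5 genes whose values over the 4 libraries lay closest to those of Ctsh, by Euclidean distance of centred log2(RPKM + 1), were Pyhin1, Psmb8, Ehd4 and Kynu, at distances of 0.223, 0.284, 0.355 and 0.383. Pyhin1, an interferon-inducible gene, measured 7.61 and 7.09 RPKM in Ctrl against 2.84 and 2.05. Psmb8, an immunoproteasome subunit, measured 24.1 and 18.0 against 9.76 and 5.90. Ehd4, an endocytic recycling gene, measured 4.43 and 3.82 against 1.78 and 0.998, and Kynu, a kynurenine pathway enzyme, 3.21 and 2.53 against 1.10 and 0.525. Nearest to Ctss were Rheb, Polr2h and Pdcd6, at 0.09999, 0.116 and 0.140, and each had Ctrl 1 well above Ctrl 2. Rheb, an activator of the growth kinase mTORC1, measured 4.12 and 2.17 RPKM in Ctrl against 1.60 and 0.850. With 4 libraries per profile these distances describe the values and are no test.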

How the data were processed

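RNA of sorted germinal centre B cells was amplified with Ovation RNA-Seq System v2 and made into Nextera XT libraries, per the labels' protocols. The authors deposited 1 table per experiment with RPKM per library and RefSeq gene, and, per the file headers, their log2 ratio and p-value for each gene. The tables were made in Wardrobe, per the series design text. TopHat2 2.0, Cufflinks 2.2, Cuffdiff, DESeq, mm9 and mm10 are named, with no role, in the submitters' processing notes, and which aligner made these tables is not stated there. Deposited start sites of Ctss, Ctsa and Ifi30 equal those of RefSeq on GRCm38 (mm10), whose coordinates are used. For genes at 1 RPKM or more in both libraries, the authors' log2 ratio exceeds that of their deposited RPKM by 0.205 (experiment 1; within 0.05 for 97.1% of genes) and 0.721 (experiment 2; 96.3%).

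Entries sharing a symbol (2 symbols) were summed. The 6446 genes that reached 1 RPKM in 2 libraries or more were fitted on log2(RPKM + 1) with limma 3.58.1 in R 4.3.3 (trend in the variance, 2-sided) with the experiment as a block, which leaves 1 residual degree of freedom. P-values were adjusted by Benjamini-Hochberg over all tested genes. As deposited the prior degrees of freedom were infinite, so a gene's own spread carried no weight, and after scaling they were 13.6. Replicate numbers in the labels name the experiment, 1 table each. Deviations of same-numbered libraries from their group means correlated at 0.377 as deposited and 0.333 after scaling. Scaling was by median of ratios over genes at 1 RPKM or more in all 4 libraries. Read totals and reads per gene are approximate: only 75.1% to 78.1% of low values were within 0.1 of a whole read, too few for a count model. Transcript lengths came from GENCODE M21. The fit was tested on simulated data. Tables and figures used Python 3.11.15.

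Named genes are the 10 members, the called and the 2 most abundant genes of each pathway list, and the genes nearest to Ctsh and Ctss, of which a few are not reported here. The cell markers, Ctsf and Ctsg were named after their values were seen. The members and lists were chosen with earlier results of these data known. Alternatives were other scalings, a pseudocount of 0.1, no filter, no block and leaving out each library.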

Additional observations from a re-analysis of the deposited data

How the results depend on the processing

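As deposited, 70 genes fell and 6 rose (limma), and 2 of the described genes, Ctsh and Lgmn, were among those lower. Counts of described genes here include Ctsh, which was chosen by these values, so that its call is no test. Apart from Ctsh they were 1 as deposited (Lgmn), 5 without the library labelled Irf8 cKO 1, and 0 under each other alternative fitted. The calls depended on the scaling: median-of-ratios scaling gave 26 lower, 15 higher and 1 described gene, upper-quartile scaling 3, 1 and 0, and median of ratios over all genes above 0, chosen after seeing the data, 0, 0 and 0 (at unadjusted p under 0.05, 380 lower and 279 higher, with 4 described genes). A pseudocount of 0.1 left 1 described gene, and no filter gave 0 genes lower, 0 higher and 0 described genes (1694 and 292 at unadjusted p under 0.05). Without the replicate block there were 19 lower, 2 higher and 0 described genes, and with scaling as well 5, 2 and 0. Leaving out 1 library, which also drops the block, gave 0 to 1450 genes lower, 0 to 9 higher and 0 to 6 described genes as deposited, the highest counts without the library labelled Irf8 cKO 1. After scaling these were 0 to 1, 0 to 1 and 0. No described gene was called higher under any alternative run. Ctsd changed sign, to 0.14 with median-of-ratios scaling with or without the block, 0.12 over all genes above 0 and 0.15 with upper quartiles. Leaving out a library gave Ctsd ratios from -0.31 to 0.0065 as deposited, and after scaling 0.24 without Ctrl 1, 0.034 without Ctrl 2, -0.11 without the library labelled Irf8 cKO 2 and 0.39 when that labelled Irf8 cKO 1 was left out. Ctsa changed sign after scaling to 0.16 without Ctrl 2 and 0.093 without the library labelled Irf8 cKO 1. The authors' deposited ratios reversed for Ctsa in experiment 1 (0.016) and Ctsd in experiment 2 (0.84). Apart from scaling and the libraries used, the cause was not tested. The precision of every value is limited by 2 libraries per group.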
